A study of Mus musculus with 2 samples.

Results

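Cholesterol synthesis and lipid metabolism genes were examined in small intestinal TCRαβ+CD8αα+ intraepithelial lymphocytes (IELs) from mice with floxed *Rbpj*, with and without CD4-Cre by their labels. *Rbpj* is the gene for the DNA-binding partner of the Notch receptors. The members were 36 genes chosen by role, out of 20887 genes that the arrays name through a RefSeq accession. They were 18 genes of sterol synthesis (14 enzymes and 4 regulators), 8 of fatty acid synthesis and 10 of fatty acid oxidation (7 enzymes and 3 nuclear receptors). All 36 were found, on 50 probes of 55679. The labels give C57BL/6 mice aged 8 to 12 weeks, with males and females pooled. One group is Rbpjf/f (Control) and the other is CD4-Cre Rbpjf/f (RFF4), in which Cre driven by the *Cd4* promoter deletes floxed *Rbpj* in T cells. Both groups therefore carry the floxed allele by the labels, while the study's text describes the controls as CD4-Cre mice with intact *Rbpj*. RNA from several isolations was pooled within each genotype, and 150 ng was labeled for 1 Agilent array of 1 color per genotype, both on the same slide. The comparison asks which genes differ in these cells when Cre is set to delete *Rbpj*.

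Each group has 1 array, so the design has no replicates: no error between pools and no p-value is printed, and each value below is 1 measurement. A level is the log2 signal of a gene's brightest probe (by its mean over both arrays) after background subtraction, minus the 75th percentile of that array, and a difference is RFF4 minus Control. Differences past 2-fold (1 on the log2 scale) were counted. Probes spotted at least 10 times on each array gave a technical SD of 0.13 for a log2 difference, which holds no variation between mice or between pools. *Rbpj* itself was not lower on the array labelled RFF4, at 1.96 in Control and 2.28 in RFF4 with its brightest probe (0.32). Its other probe went from −1.44 to −0.62 (0.82), so both were higher, against the label. Notch target genes were looked up after their values were known. *Heyl* went from 1.85 to −1.95 and *Dtx1* from 6.66 to 3.03, both lower on the array labelled RFF4, in the direction of the label. *Hes1* went the other way, at −3.93 in RFF4 and not well above background in Control. Its RFF4 level was close to the lowest signal well above background on that array, −4.29. Where the probes lie relative to the floxed exons is not given in the sources used here. The arrays are therefore called by their labels. T cell identity genes were bright on both arrays: *Cd3e* was at 8.10 and 8.44 and *Cd8a* at 6.24 and 6.17. *Cd8b1* was at −3.52 in Control and was not well above background in RFF4, while *Cd4* was at 1.67 and 1.80. Markers of cells outside the sorting gate were higher on the RFF4 array, with a median difference of 1.55 over 15 epithelial genes (15 of 15 higher, but *Epcam* by 0.40 and *Cdh1* by 0.31), 1.57 over 9 macrophage and dendritic cell genes (9 of 9 higher, 2 of them as bounds) and 1.73 over 6 B and plasma cell genes (5 of 6 higher), although *Cd79a* was not well above background on either array. The median was 0.29 over 13 T cell and CD8αα IEL genes, 0.48 over 11 proliferation genes and 0.49 over 12 housekeeping genes. The part of these cells in the results below was not tested, and in pooled RNA more cells of a type cannot be told apart from more RNA per cell.

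Cells build cholesterol from acetyl-CoA through mevalonate, isoprenoid diphosphates, squalene and lanosterol. The transcription factors SREBP1 and SREBP2, the products of *Srebf1* and *Srebf2*, raise the genes of this route and of fatty acid synthesis when sterols run low, with SCAP as their escort and INSIG1 as the protein that holds them back. Fatty acids are burned in mitochondria after the carnitine palmitoyltransferases have carried them across the membrane, and PPAR nuclear receptors drive the genes for that work. In T cells, proliferation draws on lipid synthesis, and long-lived resident cells are known for burning fatty acids.

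Promoter sequences played no part in choosing the members. RefSeq windows on assembly GRCm38.p6, each from 250 bases before to 50 bases after a gene's start, were at hand for 31 of the 36 members (40 windows of 300 bases). *Fdft1*, *Fdps*, *Scd1*, *Scd2* and *Sqle* have none here. The letters CCAAT, which the factor NF-Y binds, were searched on both strands and stood in the windows of all 11 sterol enzymes that have one, against 41.1% of all genes with a window. CCAAT also stood in 3 of 4 sterol regulators and 4 of 6 fatty acid synthesis genes, but in 1 of 7 oxidation enzymes and 2 of 3 PPAR receptors. The Sp1 letters GGGCGG stood in 10 of the 11 sterol enzymes, against 38.2% of genes, and in 24 of the 31 members. TCACNCCAC, the core of a sterol regulatory element, stood in 1 of the 11, *Hmgcs1*, against 1.44% of genes. TGGGAA, which RBPJ binds, stood in 4 of the 11 (*Hmgcs1*, *Mvk*, *Nsdhl* and *Sc5d*), against 28.3% of genes. The direct repeat that PPAR receptors bind, 2 copies of AGGTCA with 1 base of any kind between them, was in 0 of the 40 windows, and 0.0396% of all windows hold it. A match is letters in a window and shows no binding.

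The windows of 4 genes are given because the results turn on 3 of them. *Mvk* is the member past 2-fold lower, *Cpt2* and *Ppara* are among those above 2-fold, and *Hmgcs1* stands for the sterol enzymes near 0. They are written 5′ to 3′ on the strand of the gene, in lower case, with matches to the 5 motifs on either strand in capitals. They lie at chr5:114444019-114444318 (plus strand), chr13:119690101-119690400 (plus strand), chr4:107923540-107923839 (minus strand) and chr15:85735526-85735825 (plus strand), in the order printed.
Mvk: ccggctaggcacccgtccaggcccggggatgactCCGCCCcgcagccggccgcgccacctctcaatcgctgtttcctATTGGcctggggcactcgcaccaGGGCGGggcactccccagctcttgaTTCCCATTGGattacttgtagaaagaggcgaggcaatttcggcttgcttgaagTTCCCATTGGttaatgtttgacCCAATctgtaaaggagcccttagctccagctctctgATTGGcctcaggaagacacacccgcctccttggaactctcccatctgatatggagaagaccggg
Hmgcs1: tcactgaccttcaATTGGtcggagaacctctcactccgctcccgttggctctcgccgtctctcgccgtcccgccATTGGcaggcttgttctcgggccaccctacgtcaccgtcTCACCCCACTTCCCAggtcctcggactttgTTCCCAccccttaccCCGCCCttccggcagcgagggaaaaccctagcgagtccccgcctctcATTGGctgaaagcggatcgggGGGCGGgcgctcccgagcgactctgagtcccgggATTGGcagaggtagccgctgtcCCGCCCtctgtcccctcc
Cpt2: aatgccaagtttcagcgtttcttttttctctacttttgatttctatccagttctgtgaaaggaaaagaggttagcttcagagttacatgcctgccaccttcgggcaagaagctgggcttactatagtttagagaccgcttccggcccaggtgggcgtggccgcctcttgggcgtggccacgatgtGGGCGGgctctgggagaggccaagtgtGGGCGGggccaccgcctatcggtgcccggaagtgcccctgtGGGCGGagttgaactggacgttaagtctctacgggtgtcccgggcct
Ppara: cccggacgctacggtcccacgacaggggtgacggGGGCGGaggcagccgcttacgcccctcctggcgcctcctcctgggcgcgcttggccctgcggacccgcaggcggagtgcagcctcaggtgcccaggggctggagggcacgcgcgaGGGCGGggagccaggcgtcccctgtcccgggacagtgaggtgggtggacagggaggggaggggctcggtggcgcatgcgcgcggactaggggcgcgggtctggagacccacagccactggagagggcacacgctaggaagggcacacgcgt

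In the *Mvk* window CCAAT occurs 5 times on both strands together, more often than in any other member. The RBPJ letters occur in it 2 times, 125 and 72 bases before the start and in reverse, and each overlaps a CCAAT that is also in reverse, in the run TTCCCATTGG. That run was noticed after the window had been read. It occurs at least once in 84 of 32851 windows, and 2 times in 2 windows, those of *Mvk* and of its neighbor *Mmab*, which lie head to head and share 259 bases. The *Hmgcs1* window holds TCACCCCAC 137 bases before the start, directly followed by 1 of its 2 matches to the RBPJ letters. The windows of *Cpt2* and *Ppara* hold Sp1 letters and none of the other motifs. *Pparg*, the other member past 2-fold higher, has in its windows together 3 matches to CCAAT, 3 to the Sp1 letters and 1 to the RBPJ letters.

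Most genes of sterol synthesis differed little between the 2 arrays, and *Mvk* was the 1 past 2-fold. Of the 18 sterol members, 16 differed by 0.5 or less on the log2 scale, as did 58.5% of the 13513 genes with a difference. Their median was −0.13, beside −0.02 over all genes. None of the 18 was past 2-fold higher (0 of 18), where 12.3% of all genes were, and 1 was past 2-fold lower, where 5.06% of all genes were. All 18 were well above background on both arrays.

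*Mvk*, the kinase that phosphorylates mevalonate, had a level of 5.32 in Control and 4.14 in RFF4. The difference was −1.18, or 2.26-fold lower, which is larger than the technical SD. Its other, dimmer probe went from 3.02 to 1.64, a difference of −1.37. The neighbor *Mmab*, an enzyme of vitamin B12 metabolism that was looked up after the *Mvk* value had been seen, was at 0.17 and 0.21 with its brightest probe, a difference of 0.04. Its other probes differed by −0.22 and −0.54, so both *Mvk* probes lay further below 0 than each of the 3 *Mmab* probes.

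The steps around *Mvk* were near 0. *Hmgcs1*, which makes HMG-CoA at the head of the route, had a level of 5.18 in Control and differed by −0.18. *Pmvk* and *Mvd* carry out the steps directly after *Mvk* and make isopentenyl diphosphate. *Pmvk* was at 4.07 and 4.10 and *Mvd* at 2.01 and 2.04, so each differed by 0.03. *Idi1*, the isomerase of that product, was at 3.99 and 3.83 (−0.16), and *Fdps*, which joins the units to farnesyl diphosphate, at 4.90 and 4.92 (0.02). *Fdft1*, the squalene synthase, was at 2.79 and 2.72 (−0.07) with its brighter probe, while its dimmer probe was not well above background in RFF4. *Sqle*, which oxidizes squalene, was at 4.06 and 4.12 (0.06), and *Lss*, which closes the rings to lanosterol, at 1.56 and 1.46 (−0.10). Without *Mvk*, the 13 other enzymes had a median of −0.10 and ran from −0.54 to 0.11. Of the late enzymes, *Cyp51*, which demethylates lanosterol, was lowest at −0.54, from 1.79 to 1.24, and *Nsdhl*, a sterol dehydrogenase, followed from 0.99 to 0.69 (−0.31). *Sc5d* went from 3.12 to 2.97 (−0.16) and *Dhcr7*, which reduces the last double bond on the way to cholesterol, from 1.81 to 1.62 (−0.20). *Hsd17b7*, a ketosteroid reductase, was at 0.79 and 0.90 (0.11). *Hsd17b7* and *Pmvk* each have another probe of opposite sign, −0.13 and −0.09.

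The regulators showed the same small differences. *Srebf2*, the main driver of sterol genes, went from 2.73 to 2.54, a difference of −0.19, and its other probe differed by −0.49. *Srebf1*, which favors fatty acid genes, was at −0.09 and −0.06. *Scap* was at 3.87 and 3.82 (−0.05). *Insig1*, itself a target of SREBP, went from 1.48 to 1.19, a difference of −0.28. None of the 4 was past 1.5-fold.

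**Figure D1:**
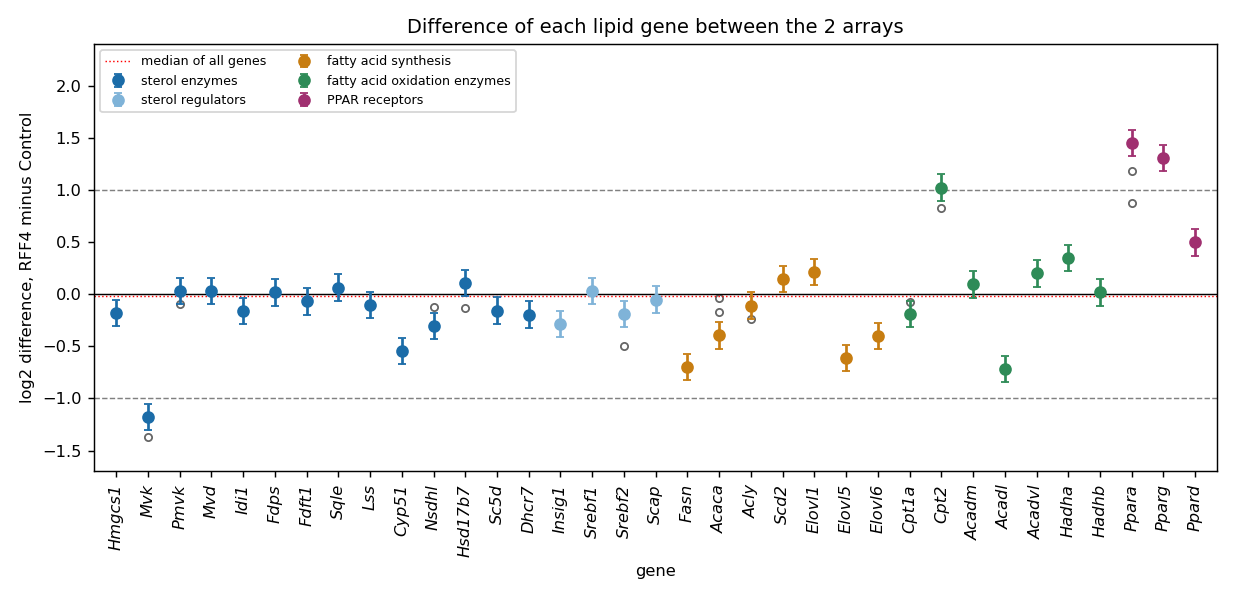
Log2 difference (RFF4 minus Control) of the 35 members with a measured difference, in order of pathway and colored by role. Filled points are the brightest probe with the technical SD of 0.13 as bars, open points are other probes of the gene, dashed lines mark 2-fold and the dotted line the median of all genes. *Mvk* alone lies below −1, and *Ppara*, *Pparg* and *Cpt2* lie above 1 with this scaling, which sets the zero line.

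Other genes of the sterol route gave a similar picture. Of 14 further genes of sterol synthesis, its control and uptake, 0 were past 2-fold in either direction and their median was 0.00. They ran from −0.65 (*Lpin1*, a phosphatidate phosphatase) to 0.50 (*Ebp*, a sterol isomerase). Genes that export, bind or esterify sterols were more spread. Of the 9 measured among 11 listed, 2 were past 2-fold higher and 1 lower, where 12.3% and 5.06% of all genes were. *Soat2*, which esterifies cholesterol, went from 4.66 to 3.37, a difference of −1.29. *Nr1h3*, the sterol-sensing receptor LXRα, went from −0.21 to 1.20 (1.41), and its other probe differed by 1.54. *Apoe*, a lipid carrier that macrophages make in abundance, went from −0.87 to 0.82 (1.69), beside the macrophage and dendritic cell genes at 1.57.

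Genes of fatty acid synthesis were lower on the RFF4 array for most members, by less than 2-fold. Of the 8 members, 7 had a difference, and 5 of these 7 were lower, *Acly* by less than the technical SD. Of all genes 6909 of 13513 were below 0. Their median was −0.40, which is 0.38 below the median of all genes. With probes averaged within each gene the median was −0.20. Past 1.5-fold, 2 of the 7 were lower and 0 higher, where 15.0% and 20.1% of all genes were.

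*Fasn*, the fatty acid synthase itself, went from 0.01 to −0.69 and differed by −0.70 (1.62-fold). *Elovl5*, which lengthens polyunsaturated fatty acids, went from 4.28 to 3.67 and differed by −0.61 (1.53-fold). *Elovl6*, which lengthens saturated and monounsaturated ones, went from 3.08 to 2.68, a difference of −0.40. These 3 genes are the lower end of the group, and each has 1 probe.

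*Acaca*, which makes malonyl-CoA and commits carbon to fatty acids, went from 2.95 to 2.56 (−0.40), and its dimmer probes differed by −0.18 and −0.04. *Acly*, which makes acetyl-CoA from citrate in the cytosol, was at 5.55 and 5.44 (−0.11). *Scd2*, a desaturase, was at 3.90 and 4.05 (0.15). *Elovl1*, which lengthens very long chains, was at 5.99 and 6.21 (0.21), and its other probe gave 0.20, so these 2 genes lay on the other side of 0. *Scd1*, the desaturase best known from liver and fat, was not well above background on either array, at −7.32 and −5.20, so no difference is given for it.

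Among 16 further genes of fatty acid synthesis with a difference (15 measured on both arrays and 1 bound), of 18 listed, the median was 0.16, and 3 were past 2-fold higher and 0 lower, beside 12.3% and 5.06% of all genes. *Elovl7*, another elongase, went from −0.38 to 1.57 (1.95). *Me1*, the malic enzyme that supplies NADPH, differed by 1.19, and its 3 probes lay between 1.19 and 1.38. *Fads2*, a desaturase, differed by 1.17 at a low level, −4.33 and −3.16. *Me1* was 0.99 with normexp background correction and *Fads2* was 0.99 with scaling to the array median, so neither was then past 2-fold. The lowest was *Hacd3*, a dehydratase of fatty acid elongation, which went from 6.31 to 5.55 (−0.76).

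**Figure D2:**
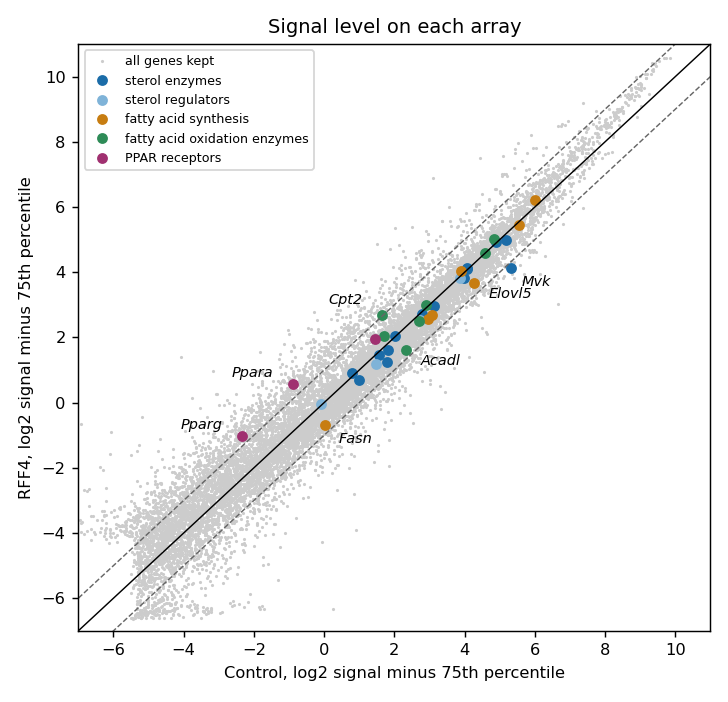
Level on the Control array (x axis) against the RFF4 array (y axis), as log2 signal minus the 75th percentile, for all genes kept (gray) and the members (colored by role). The solid line marks equal levels and the dashed lines 2-fold. *Mvk* lies below the lower dashed line, *Ppara* and *Pparg* above the upper one toward the lower left, and *Cpt2* on it.

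The enzymes of fatty acid oxidation had a median of 0.09 over 7 genes, and the 3 PPAR receptors were all above 0. Together the 10 members had a median of 0.27, or 0.29 above that of all genes. That gap was 0.10 with normexp background correction and 0.02 without the filter on dim genes. Past 2-fold, 3 of the 10 were higher (*Cpt2*, *Ppara* and *Pparg*) and 0 lower. These are also the 3 of 35 measured members past 2-fold higher, 8.57%, where 12.3% of all genes were.

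*Cpt2*, the inner-membrane carnitine palmitoyltransferase, went from 1.66 to 2.68. The difference was 1.02, or 2.03-fold, which lies at the threshold, and its other probe gave 0.83. *Cpt1a*, which catalyzes the rate-setting step at the outer membrane, was at 2.70 and 2.51 (−0.19). The *Cpt1a* probe was spotted repeatedly. Its 9 usable spots in Control ran from 2.63 to 2.75 with a median of 2.71, and its 10 spots in RFF4 ran from 2.35 to 2.62 with a median of 2.52. The spots of the 2 arrays did not overlap with this scaling, but the lowest Control spot lay only just above the highest RFF4 spot. That gap depends on the scaling constant, and it does not show how much pools of mice vary.

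The acyl-CoA dehydrogenases, which begin each round of oxidation, went different ways. *Acadl*, which takes long chains, went from 2.33 to 1.61, a difference of −0.72 (1.64-fold). *Acadvl*, which takes very long chains, was at 4.83 and 5.03 (0.20), and *Acadm*, for medium chains, at 2.89 and 2.99 (0.09). The 2 subunits of the trifunctional protein, which completes the round for long chains, differed by 0.34 (*Hadha*, 1.69 and 2.04) and 0.02 (*Hadhb*, 4.58 and 4.59).

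The PPAR receptors stood at the upper end of the members. *Pparg*, the receptor best known for fat storage and also made by gut epithelium and macrophages, was spotted 10 times on each array. Its Control spots ran from −2.59 to −2.20 with a median of −2.30, and its RFF4 spots from −1.13 to −0.88 with a median of −1.02. No RFF4 spot overlapped a Control spot, and the difference of the means was 1.30 (2.47-fold). The spots of *Cpt1a*, which differed by −0.19, did not overlap either, so non-overlap does not set *Pparg* apart. How many other repeated probes show it was not counted.

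*Ppara*, the receptor best known for driving fatty acid oxidation, went from −0.87 to 0.58 with the probe that was brightest over both arrays, a difference of 1.45 (2.73-fold). Its other probes, each spotted 2 times, gave 0.88 and 1.18, the widest spread between measured probes of any member. The probe that was brightest on the Control array alone, at −0.62, is the one that gave 0.88, so the 2-fold call for *Ppara* rests on the choice of probe. *Ppard*, the receptor that is found in most tissues, went from 1.44 to 1.94 (0.50). *Ppara* and *Pparg* were dim on the Control array, and the epithelial genes, at 1.55, and macrophage and dendritic cell genes, at 1.57, were higher by a similar amount.

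**Figure D3:**
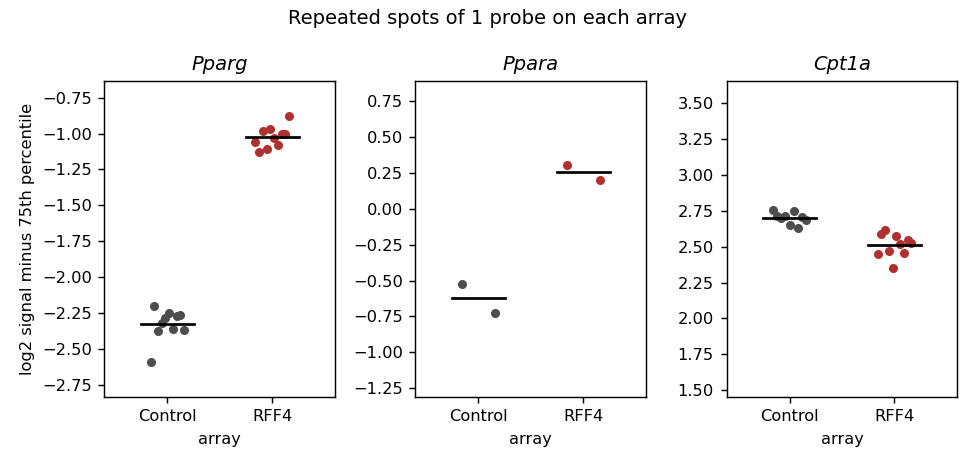
Each point is 1 spot of 1 probe on the Control or RFF4 array, as log2 signal minus the 75th percentile of the array, and bars are means. *Pparg* has 10 spots on each array, *Ppara* 2 (1 of its other probes is shown), and *Cpt1a* 9 and 10. With this scaling the spots of the 2 arrays do not overlap, for *Cpt1a* only narrowly. The spots of an array are technical repeats of 1 RNA pool.

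Of 24 further genes of fatty acid oxidation, 23 were measured, 19 of them were above 0 and their median was 0.30. Of all genes 6604 of 13513 were above 0, and of the housekeeping genes 11 of 12. Past 2-fold, 2 were higher and 0 lower, with 12.3% and 5.06% over all genes, so the share of higher genes was no larger than the background. *Rxra*, the partner with which PPAR receptors bind DNA, went from −4.88 to −2.98 (1.91), but its other probe, which was the brighter one in Control at −4.24, gave 0.51. Its call rests on the choice of probe, and with normexp it was 0.77 and no longer past 2-fold. *Ppargc1a*, a coactivator of mitochondrial genes, went from −2.70 to −1.03 (1.67). The lowest was *Acsl1*, which activates long-chain fatty acids, at −0.90.

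Genes of fatty acid uptake, binding and storage ran from −1.94 to 2.60. Of 15 with a difference (14 measured on both arrays and 1 bound) among 18 listed, 5 were past 2-fold higher and 1 lower, where 12.3% and 5.06% of all genes were, and the median was 0.61, or 0.72 without the bound. *Dgat1*, which makes triglyceride from diacylglycerol, went from 5.68 to 3.73, a difference of −1.94 (3.85-fold lower). *Dgat2*, which does the same work with an unrelated protein, went from 0.54 to 1.77 (1.22). *Mgll*, a monoglyceride lipase, differed by 2.60 from a level near background in Control, −5.06, and the 3 others of its 4 probes were not well above background. It was 1.29 with normexp and 1.77 with the mean of all probes. *Fabp1* (1.19), *Fabp2* (1.51) and *Mttp* (1.62) belong to fat absorption in enterocytes. They were higher by about as much as the epithelial genes, whose median level went from 3.06 to 4.53. *Dgat1* (−1.94) and *Soat2* (−1.29), which esterify fat and cholesterol and also work in enterocytes, went the other way. With normexp *Fabp1* was 0.97 and *Dgat2* 0.99, and neither was past 2-fold. Fat cell markers gave a mixed picture, with *Adipoq* not well above background on either array and a median of 0.51 over the 5 of 8 measured.

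**Figure D4:**
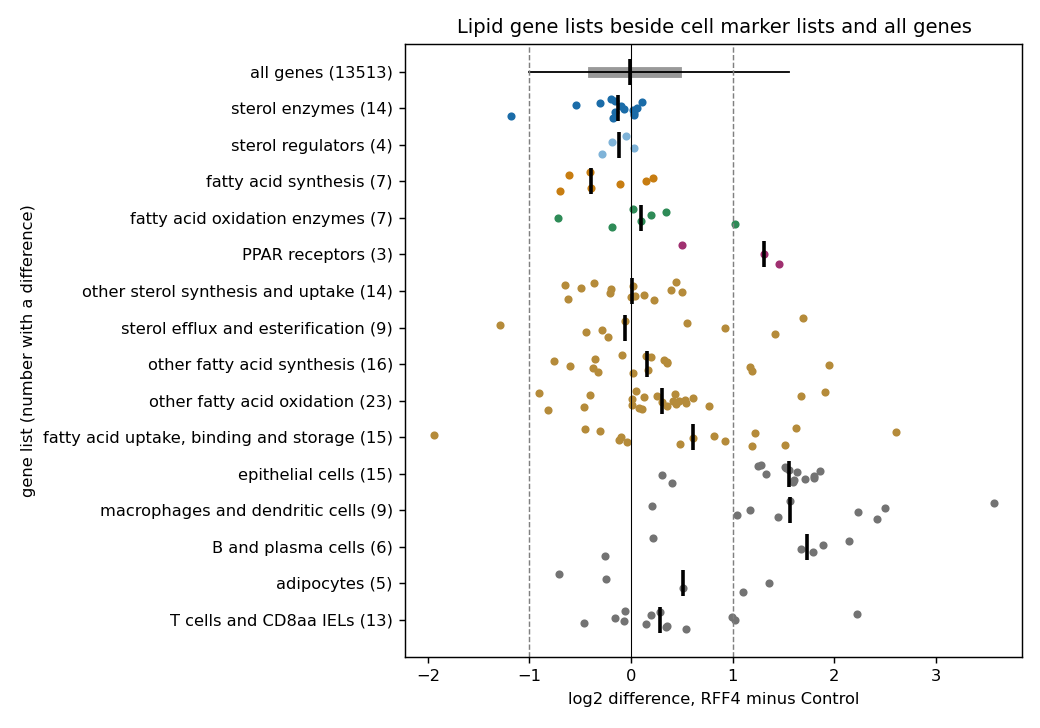
Log2 difference (RFF4 minus Control) of each gene in the member lists (colored), the other lipid lists (brown) and marker lists of cell types (gray), with the number of genes measured in brackets. Black ticks are medians, the bar and line for all genes span percentiles 25 to 75 and 5 to 95, and dashed lines mark 2-fold. The sterol synthesis lists have medians near that of all genes, while epithelial, macrophage and B cell genes lie mostly above 1.

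The calls depend on the scaling, which sets where 0 lies. Scaling each array to its median moved the median of all genes by −0.17, and *Cpt2* was then 0.85 and no longer past 2-fold. With the spike-in controls set equal, the median of all genes moved by −1.09. *Mvk* was then −2.30, 27 of the 35 measured members were past 2-fold lower and 0 higher, where 56.7% and 1.39% of all genes were, and *Cpt2* changed sign to −0.10. With normexp background correction *Ppara* was 0.70, *Cpt2* 0.82 and *Pparg* 1.09, so 1 member was past 2-fold higher. With the mean of all probes *Cpt2* was 0.93 and 2 members were past 2-fold higher. *Mvk* was past 2-fold lower under all 12 alternatives, between −1.13 and −1.36 apart from the spike-in scaling. Plain ratios, the filters and outlier spots kept do not act on its value, and several scalings only shift all genes by a constant.

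**Figure D5:**
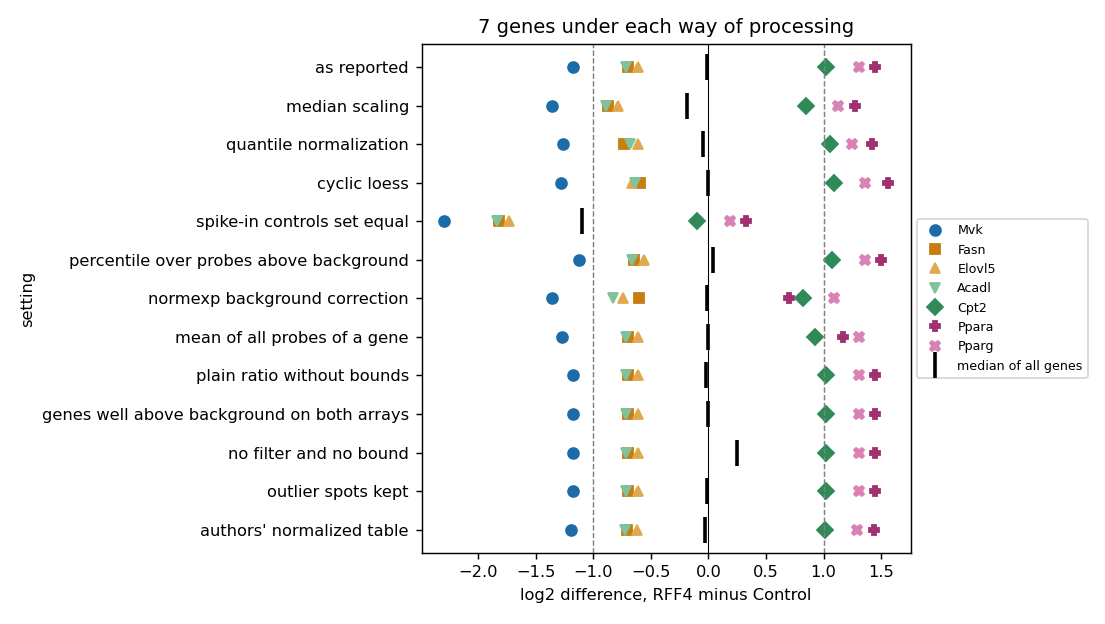
Log2 difference (RFF4 minus Control, x axis) of 7 members under the reported processing and each of 12 alternatives (y axis), with the median of all genes as a black tick and dashed lines at 2-fold. *Mvk* stays below −1 throughout, while the 3 highest genes stay above the median of all genes and *Cpt2* falls below 0 with the spike-in controls set equal.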

How the data were processed

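Small intestinal TCRαβ+CD8αα+ IELs of both genotypes were profiled on 1 Agilent array each, with Feature Extraction 10.7.1.1 per the submitters' processing notes. The authors deposited background-subtracted spot intensity on a linear scale, with no normalization between arrays, and a table of log2 values normalized in GeneSpring, whose settings are not given in the sources used here. Each row of that table sums to 0 within 0.001, and its differences equal those reported here less a constant of 0.01, so its centering and direction are known. Of its lines, 924 that repeat a probe and 6231 without a value were left out.

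Here, the 75th percentile of the log2 signals of gene probes was subtracted from each array (8.99 in Control, 7.82 in RFF4). Control spots and outlier spots (102 and 131) were left out, spots of a probe were averaged, and the brightest probe stood for a gene. On the arrays, 57.2% and 49.7% of 59305 gene spots were well above background and 0 were saturated. The scanner software calls a spot well above background or not, and a probe needed such calls for 50% of its spots or more. A gene was kept if it was so on 1 array or both (14224 genes), and where the dimmer array was not, a bound against the lowest signal well above background was used (558 genes). For 711 genes that bound was under 1-fold and none is given. SystematicName accessions were matched to RefSeq symbols of GRCm38.p6 for 27509 of 29150 probes with an accession. *Cd68*, *Itgae*, *Trdc* and *Trdv4*, listed as markers, matched no probe.

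The members and lists were chosen with earlier results of these data known, and genes of the further lists were named if past 2-fold or at the ends of their list. Python 3.11.15 with numpy 2.4.6 and pandas 2.3.3, matplotlib 3.10.9, and R 4.3.3 with limma 3.58.1 were used. The calculation was tested on simulated data, a made-up RFF4 array with 200 altered genes. That array was the Control array with a constant shift and spot noise, and it held no variation between pools. Of 13356 genes, 0 that were left alone passed 2-fold, which checks the calculation and gives no rate of false calls. The raised genes were found in 50 of 50 cases at each size, 1.5 and 2.5 on the log2 scale. Of the lowered genes 43 of 50 were found at −1.5 and 42 of 50 at −2.5, and each one missed had no signal well above background on the lower array.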

Additional observations from a re-analysis of the deposited data

How the results depend on the processing

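No paired analysis was possible because each genotype has 1 array, and for the same reason no array could be left out. Matching by the gene names in the files was not run, since 0 probes carry a listed symbol. The authors' normalized table, outlier spots kept, plain ratios, probes above background on both arrays (as filter or percentile), quantile normalization and cyclic loess left every list median within the technical SD of its value and every count within 1.5 times, though quantile normalization moved 6 single genes by more than that SD and cyclic loess 5. Median scaling, a constant shift, gave medians of −0.31 (sterol synthesis), −0.57 (fatty acid synthesis), 0.095 (fatty acid oxidation), −0.17 (other sterol synthesis), −0.24 (sterol efflux), −0.022 (other fatty acid synthesis), 0.12 (other oxidation) and 0.44 (uptake and storage). Setting the spike-in controls equal, also a constant shift, gave −1.25, −1.52, −0.85, −1.12, −1.18, −0.97, −0.82 and −0.51, the members past 2-fold were 0 higher and 27 lower, the further genes 1 higher and 36 lower (1.39% and 56.7% of all genes), and *Cpt2* was −0.10. Normexp left 1 member past 2-fold higher and gave −0.27 (sterol synthesis), 0.087 (oxidation), −0.20 (other sterol synthesis) and −0.27 (sterol efflux). The mean of all probes gave −0.20 for fatty acid synthesis, and *Cpt2* at 0.93 was not past 2-fold. No filter, which adds *Scd1* and other dim genes, gave −0.25 for it and 0.87 for uptake and storage. At 1.5-fold, 4 of 35 members were lower and 3 higher, where 15.0% and 20.1% of all genes were. In normexp and the mean of all probes the cause was not tested. Searching CACNCCAC in place of TCACNCCAC left the sterol enzymes with a match at 1. Having 1 array per genotype limits the precision, and fewer spots were well above background on the RFF4 array.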
